A study of Homo sapiens with 5 samples.

Results

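N87-TR2, a gastric cancer line labelled resistant to trastuzumab, was compared with N87-TR1 and N87-TR4, resistant lines of the same series, to ask where N87-TR2 stands apart from its 2 nearest relatives by expression. The comparison uses 3 of the 5 arrays, 1 per line, and covers the 11720 genes with a probe above background (detection p under 0.01) on at least 1 of the 3. RNA from subconfluent cultures was hybridised to Illumina BeadChips. The fourth resistant line, N87-TR3, and the trastuzumab-sensitive line NCI-N87 took no part in the comparison, and their levels are given beside some genes. All 5 lines were kept in the same serum-containing RPMI medium. The labels give no treatment, and they do not say how the resistant lines were derived, whether they are clones or whether they were cultured separately, so any p-value measures only the spread between these arrays, which may be technical.

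Trastuzumab is an antibody against ERBB2, a receptor tyrosine kinase that drives growth in gastric cancers with an amplified ERBB2 gene. The gene groups described below belong to programmes well known from other settings. In the amino acid and unfolded protein stress response, the transcription factor ATF4 raises the genes for amino acid synthesis and uptake. Interferon-stimulated genes encode antiviral proteins and are switched on by STAT and IRF transcription factors. NOTCH receptors, cut on contact with ligands on a neighbouring cell, switch on the HES and HEY transcriptional repressors.

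The arrays were similar in brightness, with median probe signals of 142.1 in N87-TR1, 148.7 in N87-TR2 and 158.2 in N87-TR4, and with 10749, 10894 and 11069 genes detected, respectively. N87-TR2 correlated across genes (no independent replicates) with N87-TR1 at r = 0.960 and with N87-TR4 at r = 0.975, and the 2 reference lines with each other at 0.966. Of 9 gastric epithelial markers, EPCAM, CDH1, KRT18 and MUC1 were detected on all 3 arrays. KRT8 was detected in N87-TR1 and N87-TR4 and not in N87-TR2, and KRT19, CLDN4, CLDN7 and TFF1 were detected in none of the 3. No endothelial marker of 8 was detected in any of the 3 lines, nor were 9 of 10 fibroblast and 11 of 14 leukocyte markers.

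By normalised signal, background-level values included, N87-TR2 was 2-fold or more above both reference lines for 67 genes (0.572% of those tested) and 2-fold or more below both for 125 (1.07%), counting only genes for which the distance to the nearer reference line also exceeded the gap between N87-TR1 and N87-TR4. This distance, in log2 units, is called the margin here. Among genes detected on all 3 arrays, ABCA8 (a lipid transporter), INHBE (an activin subunit of the TGF-beta family) and KCNE4 (a potassium channel subunit) had the largest positive margins, and SSH3 (a cofilin phosphatase), RPRM (a p53-linked cell cycle inhibitor) and ID1 (an inhibitor of basic helix-loop-helix factors) the largest negative ones. SFRP1, a secreted WNT inhibitor, was not above background in N87-TR2 and had the largest bound of the named genes, at least 7.41-fold lower. The same rule marked 188 genes higher (1.6%) and 171 lower (1.46%) when N87-TR1 was set against the other 2 lines, and 54 (0.461%) and 39 (0.333%) for N87-TR4, so the 192 genes of N87-TR2 (1.64%) lie between these counts. No gene passed limma's moderated test at an adjusted p under 0.05, and the smallest adjusted p was 0.309. At an unadjusted p under 0.05 there were 545 genes, 4.65% of those tested. The residual spread in that test comes from the 2 reference lines alone, with 1 degree of freedom, and the lone N87-TR2 array is assumed to vary like them. The differences below are therefore measured values of these arrays, and none is a tested change. Of the genes without a bound, 5 had a margin of 4-fold or more upward and 4 downward. VGF (1.01), BCAT1 (1.02) and AP5B1 (-1.01) lay just inside the 2-fold limit, and TBX22 (1.00 after rounding), FAM174C (0.98) and CEP15 (-0.99) just outside it.

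**Figure D1:**
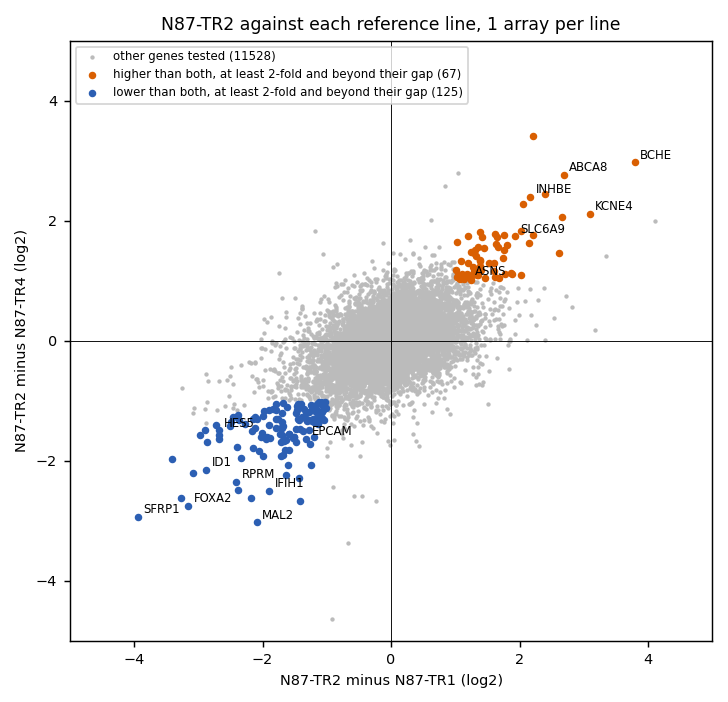
Difference of N87-TR2 from N87-TR1 (x axis) and from N87-TR4 (y axis) in log2 units, 1 point per gene. By normalised signal, background-level values included, orange points are the 67 genes and blue points the 125 genes 2-fold or more outside both reference lines and beyond their gap, and they lie at the upper right and lower left of the 11720 genes.

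Many of these genes were at background on a side of the comparison. The probe used was detected on 1 array only for 34 of the 67 higher genes, and 34 have only a lower bound on the fold. Of the 125 lower genes, 57 have only a bound. For such a gene the bound sets the brighter side against the lowest detectable signal. The bound reached 2-fold for 7 of the 34 and 26 of the 57, so for the other 27 and 31 a 2-fold difference rests on signals not above background.

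BCHE had a log2 signal of 5.66 in N87-TR1, 9.45 in N87-TR2 and 6.48 in N87-TR4, with 9.11 in NCI-N87 and 6.01 in N87-TR3. BCHE, butyrylcholinesterase, was not above background in N87-TR1, and N87-TR2 exceeded N87-TR4, where it was detected, by 2.97 log2 units. N87-TR2 thus stood near the sensitive line. ABCA8 was at 6.68, 9.37 and 6.60 in N87-TR1, N87-TR2 and N87-TR4, and at 6.07 in NCI-N87 and 6.69 in N87-TR3. It was high in N87-TR2 only among the 5 arrays, 6.61-fold above the reference mean (2.72 ± 0.35 SE, adjusted p = 0.309 by limma). RAPGEF3, a cyclic AMP sensor, was detected in N87-TR2 alone of the 3 lines, at 7.56, at least 2.48-fold above the detection limit of the others.

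KCNE4 read 7.06 in N87-TR1, 10.15 in N87-TR2 and 8.03 in N87-TR4, against 4.75 in NCI-N87 and 6.01 in N87-TR3. INHBE read 7.03, 9.20 and 6.80 in the 3 lines, and GDF15, a stress-induced cytokine of the TGF-beta family, read 6.68, 8.70 and 6.87. Both were higher in N87-TR2 than in N87-TR3, at 7.30 and 7.06, whereas NCI-N87 had 5.58 of INHBE and 10.15 of GDF15. NUPR1, a stress-induced nuclear protein detected on 2 of the 3 arrays, was at 6.28, 8.43 and 6.80, and ELAPOR2 was at 8.23, 9.98 and 8.22 with 9.96 in NCI-N87.

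PCDHB2 (a protocadherin), C12orf56, CPED1 and ARHGAP35 were detected in N87-TR2 alone of the 3 lines, at least 2.24, 1.90, 2.54 and 1.60-fold above the detection limit of the reference lines. KRTAP21-2, a keratin-associated protein gene, was at 9.02 in N87-TR2 against 6.82 in N87-TR1 and 5.61, not above background, in N87-TR4. LINGO1, a neuronal membrane protein gene, was at 9.16 against 7.55 and 7.38, and N87-TR3 lay between at 8.42.

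The log2 signal of SFRP1 was 9.61 in N87-TR1, 8.60 in N87-TR4 and 8.19 in N87-TR3, whereas in N87-TR2 (5.67) and NCI-N87 (5.33) it was not above background. The fold between the reference lines and N87-TR2 was at least 7.41. FOXA2, an endodermal transcription factor, read 8.09 in N87-TR1, 7.69 in N87-TR4 and 4.93, not above background, in N87-TR2, a difference of at least 3.19-fold. RPRM read 10.59, 8.17 and 10.52 in N87-TR1, N87-TR2 and N87-TR4. Its level was also 10.60 in N87-TR3, so 3 resistant lines lay within 0.1 of each other and N87-TR2 was 5.20-fold below the reference mean (-2.38 ± 0.35 SE, adjusted p = 0.309 by limma).

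SSH3 read 9.20, 6.81 and 9.30 in the 3 lines, against 11.65 in NCI-N87 and 7.67 in N87-TR3. With N87-TR3 added as a reference line, SSH3 was no longer beyond the limit (margin -0.86). ID1, a BMP target, read 10.12, 7.24 and 9.39, and MAL2, a protein of apical transport in epithelia, read 8.61, 6.52 and 9.55. N87-TR3 stood at 9.46 for ID1 and lower still, at 5.34, for MAL2. SLC16A5, a monocarboxylate transporter at 8.21 in N87-TR1 and 7.56 in N87-TR4, was not above background in N87-TR2 (4.94), and read 5.20 in N87-TR3 and 12.85 in NCI-N87. PGF, a placental growth factor of the VEGF family, was at least 3.19-fold lower in N87-TR2, C1QTNF1 at least 3.73-fold, RAMP1 (a receptor activity-modifying protein) at least 2.17-fold, CLYBL (a mitochondrial lyase) at least 2.46-fold and SYNDIG1 at least 1.92-fold. PHACTR3, a phosphatase and actin regulator, read 8.42, 6.36 and 8.20.

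**Figure D2:**
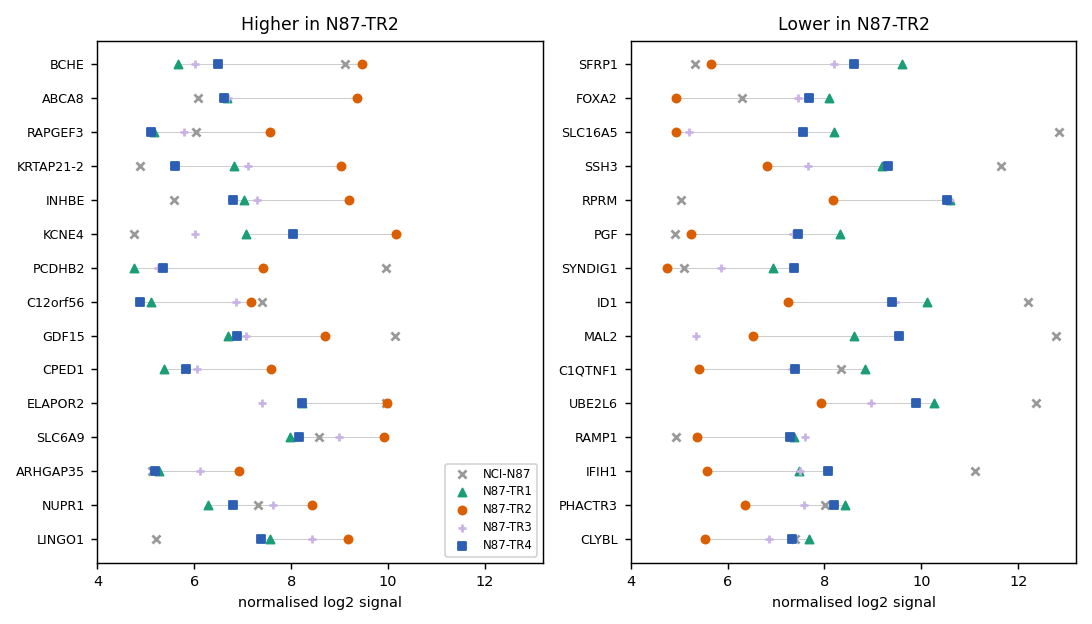
Normalised log2 signal in the 5 lines, 1 array each, for the 15 genes with the largest margins above (left) and below (right) both reference lines. The N87-TR2 points lie outside N87-TR1 and N87-TR4 in every row by construction, values below about 6.2 are mostly not above background and have no order, and the NCI-N87 and N87-TR3 points fall on either side.

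The amino acid and unfolded protein stress genes were higher in N87-TR2. Of 26 tested members, 20 lay above both reference lines and 2 below both, with a median log2 difference of 0.57, whereas over all genes tested 32.7% lay above both and 31.5% below both, with a median of 0.012. Leaving out N87-TR1 or N87-TR4 gave medians of 0.51 and 0.54. Beyond the 2-fold limit were 3 members, all higher, in a comparison that marked 0.572% of all genes higher. SLC7A5, the large neutral amino acid transporter, read 12.29 in N87-TR1, 13.59 in N87-TR2 and 12.12 in N87-TR4. TRIB3, a pseudokinase induced by ATF4, read 9.43, 11.30 and 10.17. ASNS, asparagine synthetase, read 13.27, 14.50 and 13.46. In these 3 genes N87-TR2 was the highest of the 3 lines by construction, and the reference lines differed by at most 0.74. With N87-TR3 added as a reference line SLC7A5 was no longer beyond the limit (margin 0.88), and it read 14.07 in NCI-N87. ASNS was not beyond the limit with the mean of its detected probes (margin 0.87). TRIB3 stayed beyond it in all 11 settings with both reference lines.

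Other members, named after their values were seen, lay above both lines by less. PCK2, a mitochondrial gluconeogenic enzyme, had a margin of 0.98. PSPH, which makes serine, had a margin of 0.83, and SLC3A2, the partner chain of SLC7A5, a margin of 0.65. ATF4 itself lay between the reference lines, at 14.16, 14.73 and 14.79 in N87-TR1, N87-TR2 and N87-TR4, as did the serine synthesis enzyme PHGDH and the unfolded protein factors XBP1 and SDF2L1. HSPA5, the main chaperone of the endoplasmic reticulum, was below both lines (9.26, 8.58 and 9.37), as was CRELD2 (11.54, 10.73 and 11.18). The members above both lines therefore included synthesis and transport genes, while the chaperone HSPA5 was on the other side.

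**Figure D3:**
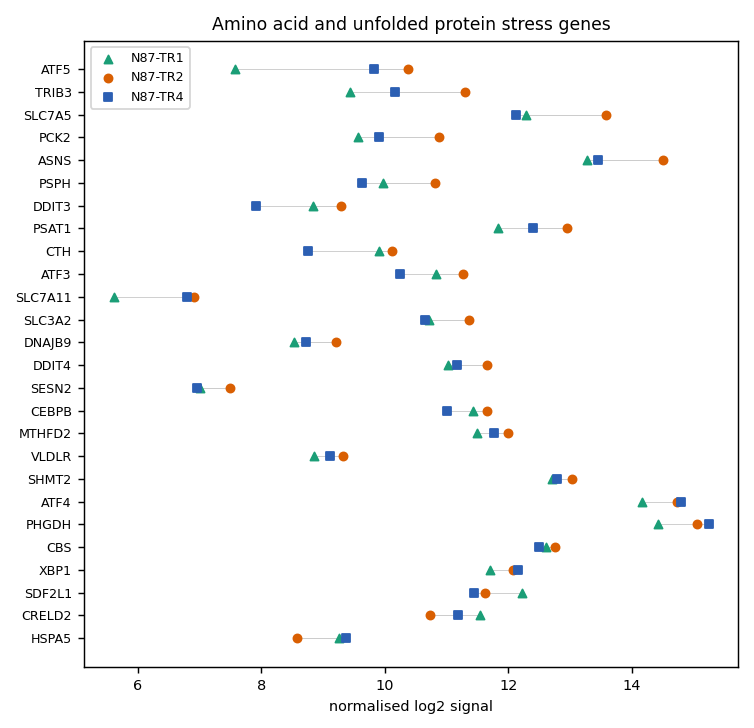
Normalised log2 signal of the 26 tested amino acid and unfolded protein stress genes in N87-TR1, N87-TR2 and N87-TR4, 1 array each, ordered by the difference of N87-TR2 from the reference mean. N87-TR2 is the rightmost point in 20 rows and the leftmost in 2, those of CRELD2 and HSPA5.

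Amino acid transporters, a list that shares SLC7A5, SLC3A2 and SLC7A11 with the last, had 11 of 17 tested members above both lines and 1 below, with a median of 0.51 (0.38 without N87-TR1, 0.65 without N87-TR4 and 0.28 with no detection filter). Over all genes tested, 32.7% lay above both and 31.5% below both. SLC6A9, a glycine transporter, was the other member beyond the limit. It read 7.98, 9.90 and 8.17 in N87-TR1, N87-TR2 and N87-TR4, and 8.99 in N87-TR3. A second SLC6A9 probe, detected on 1 array, lay on the opposite side with a margin of -0.23. Its readings of 5.55 in N87-TR2 and 5.78 in N87-TR4 were not above background, so it gives no direction. The gene's direction thus rests on 1 probe. With the mean of its detected probes the margin was 0.57, no longer beyond the limit. The second SLC6A9 probe was the only opposite one among 17 further detected probes of 15 named genes beyond the limit. The other 16 lay on the same side.

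Among interferon-stimulated genes, 18 of 31 tested members lay below both lines and 6 above both, with a median of -0.27. The median was -0.39 without N87-TR1, -0.15 without N87-TR4, -0.15 with detection on all 3 arrays and -0.05 with no detection filter. Over all genes tested, 31.5% lay below both and 32.7% above both. Beyond the limit 6 members were lower and 1 higher, where all genes tested had shares of 1.07% and 0.572%. IFIH1, a sensor of double-stranded RNA, read 7.47 in N87-TR1 and 8.08 in N87-TR4 and was not above background in N87-TR2 (5.57), where it was at least 2.95-fold lower. EPSTI1 read 6.56 in both reference lines and was at least 1.27-fold lower in N87-TR2. IFITM2, which blocks viral entry, read 9.94, 8.30 and 10.12. All 3 stood higher in NCI-N87, at 11.10, 9.64 and 12.12.

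BST2 (tetherin, which holds virions at the cell surface), IFITM1 and LGALS3BP completed the 6 and are named after their values were seen. BST2 read 7.75, 6.28 and 7.96, IFITM1 read 10.57, 8.11 and 9.38, and LGALS3BP read 10.85, 9.59 and 11.32. IFITM1 and IFITM2 are near-identical genes whose signals cannot be told apart with certainty. Against this direction, IFIT2 was detected in N87-TR2 alone of the 3, at 7.51, at least 2.40-fold above the others. UBE2L6, an interferon-induced enzyme that attaches ISG15 and no member of the list, read 10.25 in N87-TR1, 7.92 in N87-TR2 and 9.89 in N87-TR4. The regulator IRF1 had a margin of 0.13, and IRF9 and ISG15 lay between the lines.

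Because the lower interferon genes lay on the same side together, the promoters of the list (RefSeq, GRCh38.p14, from 250 bases before to 50 after the start) were searched for GAAA, any 2 bases and GAAA, the repeat bound by interferon-activated factors, on both strands (in reverse TTTC, any 2 bases and TTTC). This letter pattern occurred in 4.38% of 27305 promoters. Of the 27 tested members with a promoter entry, 20 held it, among them 13 of 16 below both lines, 3 of 5 above both and 4 of 6 between them. The pattern thus also occurred in members that were not lower, and a match is a description, not a site in use. In all, 5 patterns were searched, chosen after the values were seen. Windows of 80 bases, written on the gene's strand with the pattern in capitals, are shown for 4 of the lower genes. They lie at chr2:162318799-162318878 (minus strand) for IFIH1, chr13:42992247-42992326 (minus) for EPSTI1, chr19:17405716-17405795 (minus) for BST2 and chr11:313965-314044 (plus) for IFITM1.
IFIH1: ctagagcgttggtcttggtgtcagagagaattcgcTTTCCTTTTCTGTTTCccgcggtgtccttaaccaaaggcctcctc
EPSTI1: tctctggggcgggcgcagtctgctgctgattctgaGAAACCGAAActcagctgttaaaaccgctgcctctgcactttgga
BST2: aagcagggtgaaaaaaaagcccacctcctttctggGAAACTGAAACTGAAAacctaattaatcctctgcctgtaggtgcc
IFITM1: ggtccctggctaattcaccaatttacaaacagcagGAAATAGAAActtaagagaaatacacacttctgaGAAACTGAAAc
In the windows of IFIH1 and BST2 neighbouring matches overlap.

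For the stress genes the pattern TGATGNAA (reverse TTNCATCA), the core of the element bound by ATF4 with its partner CEBP factors, was found in 3 of 23 members with an entry (ASNS, SLC3A2 and ATF3) and in 4.46% of all promoters. The stricter TGATGCAA was in none of the 23 and in 1.08% of all. The ASNS match lies 68 bases before the start, in the window chr7:97872433-97872512 (minus strand).
ASNS: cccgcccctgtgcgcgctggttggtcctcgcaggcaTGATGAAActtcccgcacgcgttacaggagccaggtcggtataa
The last 2 patterns, TGGGAA and CGTGGGAA, known from NOTCH targets, were in 5 and 2 of 15 NOTCH pathway promoters and in 28.1% and 1.03% of all.

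Of 20 tested NOTCH pathway genes, 11 lay below both lines and 2 above both, with a median of -0.44. The median was -0.12 without N87-TR1, -0.62 without N87-TR4, -0.20 with N87-TR3 added as a reference line, -0.21 with no detection filter and -0.28 with detection on all 3 arrays. Over all genes tested, 31.5% lay below both and 32.7% above both. The effectors HES5 and HEY1 were beyond the limit, in a comparison that marked 1.07% of all genes lower. HES5 read 12.84 in N87-TR1, 10.17 in N87-TR2 and 11.66 in N87-TR4, and HEY1 read 12.25, 10.74 and 12.35. N87-TR3 had 9.46 of HES5, below N87-TR2, and 11.37 of HEY1, and neither gene was beyond the limit with N87-TR3 added. Other effectors and ligands, named after their values were seen, were lower by less. HEYL had a margin of -0.62 and the ligand DLL1 a margin of -0.70, while HES1 and the receptors NOTCH1 and NOTCH2 lay between the lines.

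Of 19 tested epithelial genes, 12 lay below both lines and 1 above both, with a median of -0.63. The median was -0.32 without N87-TR1, -0.93 without N87-TR4 and -0.22 with no detection filter. Over all genes tested, 31.5% lay below both and 32.7% above both, and 1.07% were lower beyond the limit. EPCAM, an adhesion molecule of epithelia, read 10.17, 8.85 and 10.49, and it was beyond the limit together with MAL2, although N87-TR3 was at 9.10 for EPCAM and neither was beyond the limit with N87-TR3 added. KRT8 (9.07, 6.01 and 7.13) and OVOL2, a repressor of mesenchymal genes (8.14, 5.44 and 6.60), were not above background in N87-TR2. They were at least 3.70 and 2.22-fold below the reference mean. N87-TR1 and N87-TR4 differed by 1.94 and 1.55, more than the margins, so neither gene was beyond the limit. KRT18 (8.82, 8.36 and 8.31), CLDN1 and GRHL1 lay between the lines, and TMC4 was above both (margin 0.19). These members are named after their values were seen. CDH1, the gene of E-cadherin, read 9.95, 8.11 and 8.61, with 7.62 in N87-TR3. Of 21 tested mesenchymal genes 7 lay above both lines and 11 below both (median -0.40, and -0.15 without N87-TR1, -0.03 with N87-TR3 added), and none was beyond the limit. VIM (vimentin) read 13.78, 14.37 and 14.23.

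**Figure D4:**
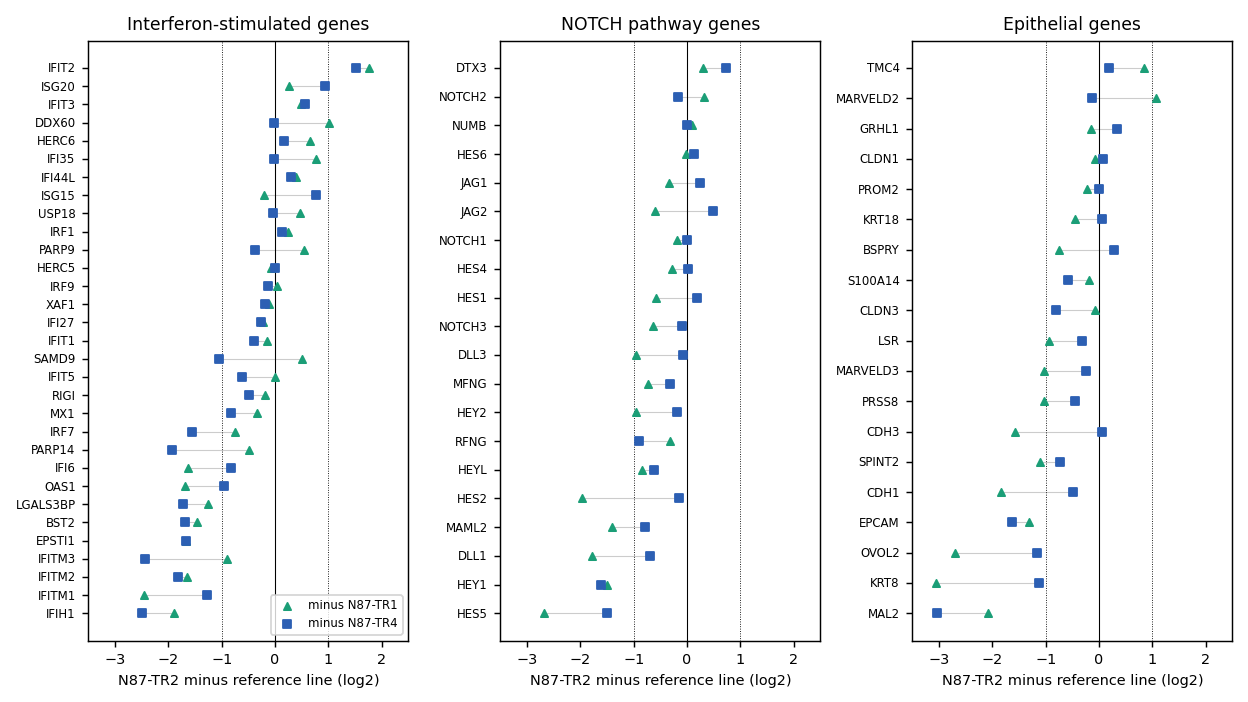
Log2 difference of N87-TR2 from N87-TR1 (triangles) and from N87-TR4 (squares) for all tested interferon-stimulated (31), NOTCH pathway (20) and epithelial genes (19), with dotted lines at a 2-fold difference. Most pairs lie left of 0, and IFIT2 is the pair farthest to the right.

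TGF-beta and BMP genes lay on both sides, which is not particular to this list. INHBE and GDF15 were beyond the limit upward, ID1 and PMEPA1 (a TGF-beta target that dampens the pathway) downward. Of 28 tested members 9 lay above both lines (32.1%) and 13 below both (46.4%), with a median of -0.076. Over all genes tested 32.7% lay above both and 31.5% below both. Beyond the limit were 0.572% of all genes upward and 1.07% downward. PMEPA1 read 7.44 in N87-TR1 and 6.96 in N87-TR4 and was not above background in N87-TR2, at least 1.98-fold lower. SMAD4, the shared signal transducer, read 9.99, 10.29 and 10.39, and SMAD6, an inhibitor of BMP signalling named after its value was seen, just missed the limit with a margin of -0.99.

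None of the receptors tied to the drug was beyond the limit. ERBB2 read 10.22 in N87-TR1, 10.73 in N87-TR2 and 10.54 in N87-TR4, against 15.90 in NCI-N87, so N87-TR2 shared the low level of the other resistant lines. EGFR read 8.16, 8.86 and 7.96, and ERBB3 read 8.22, 6.36 and 7.19. A second ERBB3 probe, detected on all 3 arrays, read 6.65, 6.33 and 6.19, with N87-TR2 between the reference lines. EGF, a ligand of EGFR, was detected in N87-TR2 alone of the 3, at 7.37, at least 2.18-fold above the others. Of 14 tested genes near ERBB2 on 17q12, 10 lay above both lines and 1 below, within a range of -0.22 to 0.54. Their median was 0.25, and 0.10 with N87-TR3 added as a reference line. Over all genes tested, 32.7% lay above both and 31.5% below both. FGFR3 read 13.03, 12.52 and 12.90, and IGFBP5 read 14.58, 14.44 and 14.87. KRT19 was not tested, since it was not detected in these 3 lines.

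Expression also differed by chromosome, a pattern examined after it was seen in the data. The probe used was detected on all 3 arrays for 10088 genes, and those placed on an autosome or X were grouped by chromosome. On chromosome 7 the median log2 difference of N87-TR2 from the reference mean was 0.33, and 70.2% of 490 genes lay above both lines against 6.94% below. On chromosome 13 the median was -0.48, with 80.3% of 178 genes below both lines and 4.49% above. On chromosome 20 it was -0.32, with 66.8% of 274 genes below both and 11.7% above. Between the reference lines the medians on these chromosomes were small, at 0.020, -0.037 and 0.084. Smaller medians were 0.16 on chromosomes 6 and 12, 0.12 on chromosome 19, -0.16 on chromosomes 3 and 16 and -0.17 on chromosome 8, while on chromosomes 16 and 19 the reference lines themselves differed by 0.20 and 0.19.

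Some shifts covered only part of a chromosome. In windows of 10 Mb with at least 20 genes, all 11 windows of chromosome 7 were positive, and all 3 of chromosome 13 were negative. Those of chromosome 13 ran only from 20 to 50 Mb. A single sign was not particular to these 2 chromosomes. All 11 windows of chromosome 6 (0.076 to 0.303) and all 9 of chromosome 12 (0.112 to 0.269) were positive. All 4 of chromosome 22 were negative (-0.115 to -0.009). On chromosome 20 the first window stood at 0.11 and the other 5 between -0.49 and -0.29. On chromosome 3 the first 5 windows stood between -0.47 and -0.33, and the remaining 8 between -0.09 and 0.19. On chromosome 19 the first 2 windows stood at 0.30 and 0.27 and the other 3 between -0.06 and 0.06, but N87-TR1 and N87-TR4 differed there as well, by 0.12 to 0.22. Over all 201 windows the quartiles were -0.05 and 0.11. DNA copy number was not measured.

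**Figure D5:**
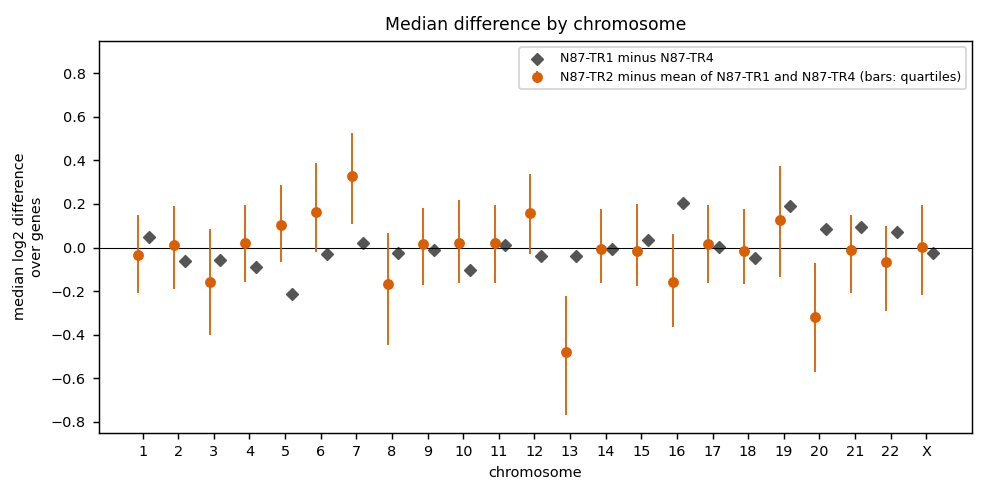
Median log2 difference by chromosome over genes detected on all 3 arrays, for N87-TR2 minus the mean of N87-TR1 and N87-TR4 (circles, with bars from the lower to the upper quartile of genes) and for N87-TR1 minus N87-TR4 (diamonds). Chromosomes 7, 13 and 20 have the circles farthest from 0, at 0.33, -0.48 and -0.32, with diamonds near 0.

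These shifts touch several named genes. Chromosome 20, with 314 genes tested, carried 12 of the 125 lower genes and 1 of the 67 higher, among the lower ones FOXA2, ID1, PHACTR3, SYNDIG1, PMEPA1 and INSM1, a neuroendocrine transcription factor. The 1 higher gene was TRIB3. Chromosome 13, with 205 tested, carried 9 lower genes and no higher gene, EPSTI1, CLYBL and GAS6 (a receptor tyrosine kinase ligand) among them, and chromosome 7, with 559 tested, carried 10 higher and 1 lower, with ASNS, CPED1, ELAPOR2, VGF, SEMA3A and HDAC9 among the higher. Other chromosomes carried similar counts among more genes tested. Chromosome 11 (655 tested, median 0.022) had 15 lower genes and chromosome 1 (1189 tested, median -0.034) had 11. Chromosome 19 (779 tested) had 10 higher and 10 lower. As shares of the genes tested, these lower counts were smaller than on chromosomes 13 and 20. The higher count of chromosome 19 was likewise a smaller share than on chromosome 7. Over all genes tested, 1.07% were lower and 0.572% higher. With each chromosome's median subtracted, 57 genes were higher and 113 lower beyond the limit. ASNS, GAS6, INSM1, PMEPA1, HDAC9, VGF and PFKFB4 were no longer beyond it, whereas FOXA2, ID1, EPSTI1, CLYBL and ELAPOR2 were. The stress list then had 21 members above both lines and 2 below, and the interferon list 7 above and 18 below. The same median was subtracted along a whole chromosome, although some shifts covered only part of it. TRIB3, in the first window of chromosome 20, thereby rose from a margin of 1.13 to 1.45. The part of chromosome position in the single genes' values was not tested further.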

How the data were processed

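Expression was measured on Illumina BeadChips in 5 cell lines, 1 array each. The authors deposited a table of scanner signal intensity for 47318 probes with a detection p-value per probe and array, not normalized. The authors' processed intensity table, also deposited, is linear with a median of 146.3, and how it was made is not stated in the labels. The submitters' processing notes name GenomeStudio. Probes were named through the platform annotation, with symbols updated through RefSeq GRCh38.p14: 30111 had 1 symbol, 8 several and 17199 none here.

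Signals were background corrected, quantile normalized over the 5 arrays and put on the log2 scale with neqc (limma 3.58.1, R 4.3.3, offset 16). A gene is its brightest probe detected (p under 0.01) on at least 1 of the 3 arrays. N87-TR2 was compared with both reference lines by the margin described above and by limma's lmFit and eBayes (two-sided, Benjamini-Hochberg, 1 residual and 6.36 prior degrees of freedom). The text names the 15 largest margins in each direction, up to 4 members beyond the limit per list and a fixed set of 9 receptors and markers. Members and lists (45, of which 44 had a gene tested) were chosen with earlier results of these data known. The number of arrays limits the precision.

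Both steps were tested on simulated data. The planted differences were raised in size during this testing, and all were larger than the largest margin counted here (2.97). A planted difference is taken from the reference mean, however, and a margin from the nearer line. Measured from the reference mean, SFRP1 (-3.44) and BCHE (3.38) exceeded the smaller planted differences. Recovery therefore does not show how the smaller differences reported here would fare. The margin rule recovered most planted differences, but it also marked unchanged genes in numbers like those counted here. The limma test recovered planted differences when noise followed its own variance model and none when noise followed the spread between the reference lines. The former noise model was added after the latter had given no recovery.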

Additional observations from a re-analysis of the deposited data

How the results depend on the processing

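The counts of genes beyond both reference lines (67 higher, 125 lower) varied with the processing. They were 19 and 37 without background correction, 33 and 79 with an offset of 50, 18 and 30 on the authors' processed values, 24 and 68 with detection required on all 3 arrays, and 31 and 64 with N87-TR3 added as a reference line. At 1.5-fold they were 310 and 450, and at 4-fold 8 and 9. Leaving out N87-TR1 or N87-TR4 removes the gap between reference lines, so that no test is possible, and gave 178 to 410 higher and 279 to 561 lower genes. Cyclic loess, 75th percentile scaling, normalization of the 3 arrays alone, no detection filter, the mean of a gene's probes, no gap requirement and subtraction of chromosome medians (chosen after seeing the data) kept both counts within 1.5 times. Of the 55 named genes beyond the limit, 18 stayed beyond it under every setting with both reference lines in which they were tested, of which 6 were not tested with detection required on all 3 arrays, and none reversed. Medians of gene lists moved as given beside them, and they also shrank with other background handling. Without background correction they were 0.45 for stress genes, 0.30 for transporters, -0.10 for interferon, -0.26 for NOTCH and -0.33 for epithelial genes. On the authors' processed values they were 0.43, 0.28, -0.10, -0.28 and -0.33 in the same order.

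The limma test called 0 genes in the setting reported, and also with cyclic loess, 75th percentile scaling, the 3 arrays alone, no filter, mean probes, N87-TR3 added, robust eBayes and an adjusted p under 0.1. It called 24 genes without background correction, 23 on the authors' values, 4 with an offset of 50, 3 with detection on all 3 arrays and 35 with a variance trend. ABCA8 and RPRM were called in all 5 of these. No paired analysis was possible because each line has 1 array. Signals near background and 1 array per line limit these values.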

Other observations

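Some genes outside the groups above were also beyond both reference lines. Among hypoxia and glycolysis genes SLC2A3, a glucose transporter, read 11.88 in N87-TR1, 10.19 in N87-TR2 and 12.10 in N87-TR4, and PFKFB4, a regulator of glycolysis, read 10.31, 9.15 and 10.20, while of 27 tested members 8 lay above both lines and 13 below both. Over all genes tested, 32.7% lay above both and 31.5% below both. SLC2A3 has a near-identical copy, SLC2A14, and signals of the pair cannot be told apart. FADS1, a fatty acid desaturase, read 8.73, 7.12 and 9.20, and MT1F, a metallothionein, read 8.35, 5.38 (not above background) and 6.97.

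Secreted guidance and growth factors lay on both sides. SEMA3A, a repellent of growing axons, read 7.64, 9.31 and 7.75 in N87-TR1, N87-TR2 and N87-TR4, and SLIT3 read 7.14, 5.75 (not above background) and 7.02. GAS6 read 9.27, 7.42 and 8.57, and EFNA1, an ephrin ligand, read 9.90, 8.74 and 9.88. CCL20, a chemokine, SCG2, a secretory granule protein, and ALDH1A1, an aldehyde dehydrogenase, were detected in N87-TR2 alone of the 3 lines, at 6.71, 7.07 and 6.34. They were at least 1.38, 1.77 and 1.07-fold above the detection limit of the reference lines. ALDH1A1 read 14.49 in NCI-N87 and 6.45, not above background, in N87-TR3.

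Cell cycle genes did not lean either way: of 38 tested, 10 lay above both lines and 10 below both, with a median of 0.065 and none beyond the limit.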
